A study of Arabidopsis thaliana with 9 samples.

Results

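The genes described here are 10 cold- and drought-responsive genes of *Arabidopsis thaliana*, chosen by name, as genes in tandem arrays, from the 33602 genes in the count table. They are *CBF1* (AT4G25490), *CBF2* (AT4G25470), *CBF3* (AT4G25480), *COR15A* (AT2G42540), *COR15B* (AT2G42530), *KIN1* (AT5G15960), *KIN2* (AT5G15970), *RD29A* (AT5G52310), *RD29B* (AT5G52300) and *COR47* (AT1G20440). RNA-seq was performed on whole 8-day-old Col-0 seedlings of 3 genotypes, with 3 libraries each. Wild type was compared with *bdr1,2,3*, a triple mutant with insertions in *BDR1*, *BDR2* and *BDR3*, and with *fpa* (allele *fpa-7*). All seedlings were stratified for 4 days at 4 °C and then kept at 21 °C, per the labels, with 16 h of light and 8 h of dark, so apart from stratification no group received a cold or drought treatment. Each mutant genotype is represented by a single line. All 10 genes passed the filter on low counts and were among the 20413 genes tested.

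CBF proteins are AP2/ERF transcription factors that are made soon after a fall in temperature. They bind the CRT/DRE element in the promoters of cold-regulated (*COR*) genes, whose products are small hydrophilic proteins that help cells survive freezing and water loss. Drought and abscisic acid reach many of the same *COR* genes through a second promoter element, the ABRE, which is bound by bZIP factors. The BDR proteins act at the ends of genes, where the study asked whether they keep RNA polymerase II from running into the promoter of the next gene on the same strand, and FPA is an RNA-binding protein that acts in 3′-end formation. Tandem arrays such as those of the cold genes are therefore a place where an upstream tandem neighbor precedes a promoter on the same strand.

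Of these genes, 9 form 4 arrays on the RefSeq annotation of TAIR10.1, and their borders there can differ from those of the TAIR10 annotation that the authors used. On chromosome 4, transcription runs on the minus strand from *CBF1* (13021780 to 13022996) to *CBF3* (13018010 to 13019400), 2379 bp away, and then to *CBF2* (13015250 to 13016235), 1774 bp away. On chromosome 2, *COR15A* (17710441 to 17712330, minus strand) lies only 7 bp before *COR15B* (17708593 to 17710433). The arrays on chromosome 5 are on the plus strand. *KIN1* (5209717 to 5210826) lies 892 bp before *KIN2* (5211719 to 5212743), and *RD29B* (21237021 to 21239531) lies 1185 bp before *RD29A* (21240717 to 21243644). *COR47* (chromosome 1, 7084409 to 7086873, minus strand) is not next to any of the other 9 genes. Its upstream tandem neighbor is *ERD10*, a dehydrin gene of the same family, 1029 bp away. In all, 7 of the 10 genes followed a neighbor of the same orientation, at a median distance of 1185 bp. In 5 of these cases the neighbor was another of the 10 genes. Because the genes were chosen as tandem arrays, this share was set by the choice and is not a result. Over the 19797 tested protein-coding genes with an upstream neighbor, 51.2% had it on the same strand, at a median distance of 704 bp where the genes did not overlap.

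**Figure D1:**
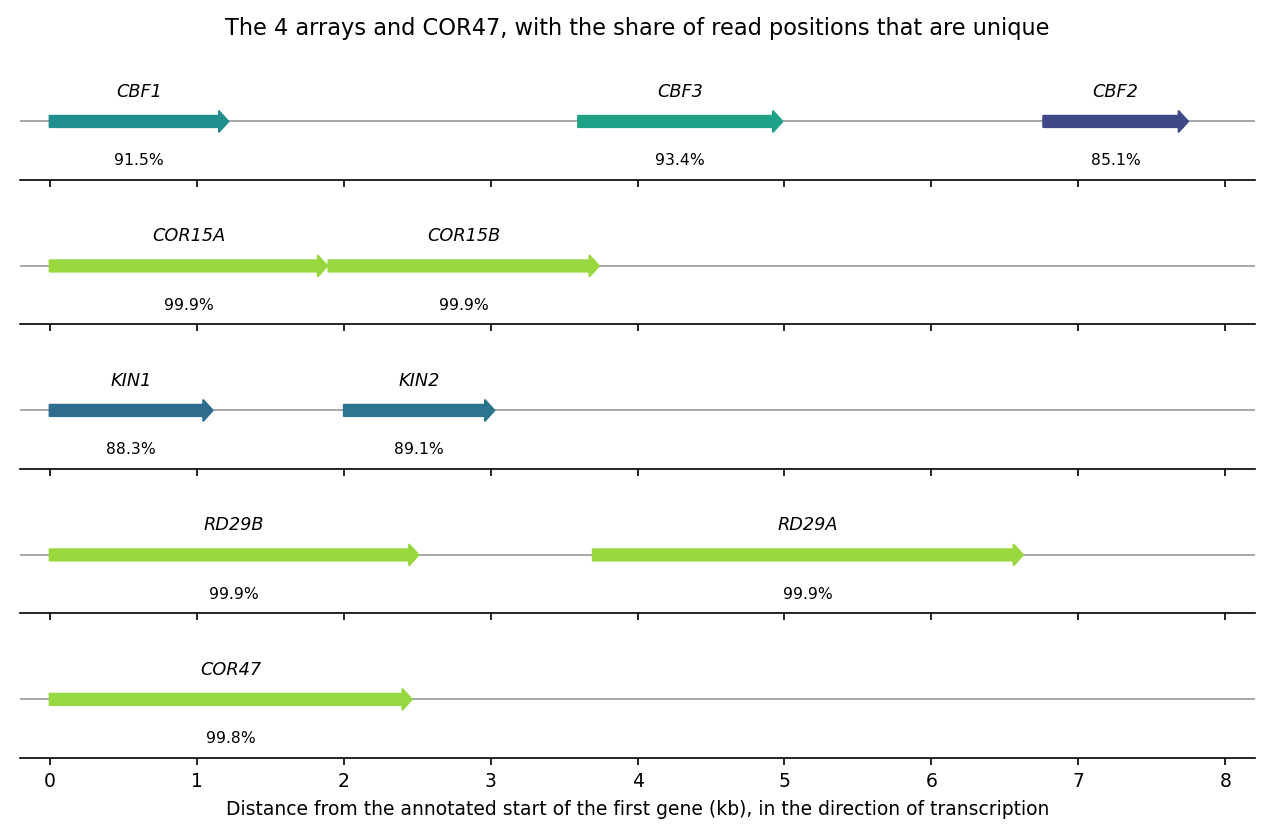
Map of the 4 arrays and *COR47* to scale, with distance in kb from the annotated start of the first gene on the horizontal axis and transcription drawn from left to right. The percentage under each arrow, also shown by its color, is the share of 49-base read positions within single exons of the gene that are unique in the genome when up to 2 mismatches are allowed: 85.1% for *CBF2*, 88.3% for *KIN1*, 89.1% for *KIN2* and 99.8% or more for the *COR15*, *RD29* and *COR47* genes.

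The members of an array are copies of each other to different degrees, which bears on the counts because only uniquely aligned reads of 49 bases were kept. The coding sequences of *KIN1* and *KIN2* were 95.02% identical over 201 bp, with 10 mismatches and a run of 58 identical bases, longer than a read. Their first 60 coding bases make this visible, with the only differing base in capitals.
KIN1: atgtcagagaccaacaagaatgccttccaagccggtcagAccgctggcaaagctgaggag
KIN2: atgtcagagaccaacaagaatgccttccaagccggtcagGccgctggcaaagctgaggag
The 3 *CBF* coding sequences were 85.04% to 86.7% identical in pairs, and *CBF1* and *CBF2* shared a run of 68 bases. Their first 60 coding bases again begin alike and part towards the end, with positions that are not the same in all 3 genes in capitals.
CBF1: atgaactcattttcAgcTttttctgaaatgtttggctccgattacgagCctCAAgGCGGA
CBF3: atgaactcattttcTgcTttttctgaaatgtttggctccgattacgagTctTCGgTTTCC
CBF2: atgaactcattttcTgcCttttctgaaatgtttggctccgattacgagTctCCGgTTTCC
*COR15A* and *COR15B* were 82.6% identical, and the stretch of 60 bases from coding base 58 of *COR15A* and 61 of *COR15B* differs at 15 positions, in capitals.
COR15A: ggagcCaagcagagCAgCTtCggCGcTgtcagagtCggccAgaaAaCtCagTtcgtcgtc
COR15B: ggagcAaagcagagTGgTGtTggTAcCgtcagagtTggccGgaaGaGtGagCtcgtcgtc
*RD29A* and *RD29B* were 56.6% identical over their aligned coding sequences, and *COR47* and *ERD10* 73.5%. With an exact match required, 95.7% of the read positions of *CBF2* were unique and at least 97.3% in each of the other 9 genes. Only positions within a single exon were checked. Reads across exon borders, which *KIN1* and *KIN2* with 3 exons each also give, are not covered by these shares. Reads that match *KIN1* and *KIN2*, or several *CBF* genes, within 2 mismatches could be dropped or assigned to the wrong copy, so the split between those copies is uncertain. *COR15B* has a different limit. The gene AT2G42520, on the opposite strand and highly expressed (66.0 CPM in wild type, 50.0 in *bdr1,2,3* and 58.8 in *fpa*, as means), overlaps its 3′ end by 468 bp in this annotation. The strand setting of the counting is not given in the sources used here, so reads in the overlap cannot be assigned with certainty. CPM are counts divided by the size of the library, with sizes adjusted by trimmed mean of M-values (TMM) factors.

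The cores of both promoter elements were searched in the 300 bases before each annotated start, on both strands: CCGAC, the core of the CRT/DRE element, and ACGTG, the core of the ABRE. The palindrome CACGTG holds ACGTG on each strand and counts as 2 matches. Among 27443 protein-coding promoters of this length, 13.9% held CCGAC and 25.6% held ACGTG, while 1.84% and 9.94% held 2 or more matches. *RD29A* had 3 matches to CCGAC and none to ACGTG, *RD29B* had 1 and 4, *COR15A* had 2 and 2, and *COR15B* had 1 and none. *CBF2* had 2 matches to ACGTG, in the palindrome, and *CBF3*, *KIN1* and *KIN2* had 1 each, with no match to CCGAC in these 4 genes. Neither core was found in the windows of *CBF1* and *COR47*, whose annotated starts lie 434 and 1209 genomic bases before the start codon. Annotated starts of the other genes lie from 149 (*CBF2*) to 560 (*COR15B*) genomic bases before it. The start of *COR15B* is only 7 bp from *COR15A*, so most of its window lies within the *COR15A* gene. A core missing from a window can therefore still be present elsewhere in the promoter. A match is a description of the letters and not a binding site. The last 200 bases before the start are printed for *RD29A* (chr5:21240517-21240716, plus strand), *RD29B* (chr5:21236821-21237020, plus strand), *COR15A* (chr2:17712331-17712530, minus strand) and *KIN2* (chr5:5211519-5211718, plus strand), as examples that differ in their elements. Matches to either core or its reverse complement are in capitals.
RD29A: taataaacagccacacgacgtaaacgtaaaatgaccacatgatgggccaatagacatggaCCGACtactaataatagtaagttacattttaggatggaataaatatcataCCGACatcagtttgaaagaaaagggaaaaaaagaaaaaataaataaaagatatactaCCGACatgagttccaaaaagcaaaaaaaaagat
RD29B: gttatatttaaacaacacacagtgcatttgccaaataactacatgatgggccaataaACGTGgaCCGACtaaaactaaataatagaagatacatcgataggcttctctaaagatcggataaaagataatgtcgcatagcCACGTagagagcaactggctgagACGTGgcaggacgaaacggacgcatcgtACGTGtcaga
COR15A: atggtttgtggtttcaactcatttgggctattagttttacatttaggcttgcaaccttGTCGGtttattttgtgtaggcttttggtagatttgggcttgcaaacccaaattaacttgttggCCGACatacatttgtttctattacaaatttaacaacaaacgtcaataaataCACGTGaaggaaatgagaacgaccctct
KIN2: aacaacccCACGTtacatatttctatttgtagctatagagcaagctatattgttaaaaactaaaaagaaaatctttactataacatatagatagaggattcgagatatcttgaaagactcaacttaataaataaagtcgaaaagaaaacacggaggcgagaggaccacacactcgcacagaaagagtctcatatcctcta
All sequences are from RefSeq (TAIR10.1).

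The libraries held 8676610 to 26861793 counts. Wild-type library 12 was the shallowest and stood apart, with counts that gave a chi-square, divided by its degrees of freedom, of 38.8 and 36.0 against the other wild-type libraries and of 8.56 between those, and with leaf marker genes summing to 42833 CPM against 26047 and 26240. The disrupted genes were checked first. *BDR1* was at 42.04, 29.1 and 41.0 CPM in wild-type libraries 1, 12 and 5 and at 1.03, 1.95 and 0.894 CPM in *bdr1,2,3* libraries 2, 4 and 7 (log2 fold change -4.81, SE 0.25, adjusted p = 3.56e-07, edgeR), and *BDR2* fell by 0.85 on the log2 scale (SE 0.18, adjusted p = 0.0177). *BDR3* had a log2 fold change of -0.76 (SE 0.29, adjusted p = 0.226) in *bdr1,2,3* and *FPA* of -0.39 (SE 0.18, adjusted p = 0.248) in *fpa*. Counts over a gene with an insertion or small lesion do not show how much intact transcript is made.

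Levels per length, in RPKM (the CPM divided by the exon length in kb), spanned 291-fold between the 10 genes in wild type. *KIN2* (196 ± 74.7 RPKM, SD, n = 3) and *COR47* (112 ± 22.3) held 90.4% of the summed level. They were followed by *RD29A* (11.2 ± 2.35), *RD29B* (9.49 ± 0.668), *COR15B* (6.30 ± 2.10) and *COR15A* (2.24 ± 1.59). *KIN1* (1.135 ± 0.355), *CBF2* (0.919 ± 0.601), *CBF1* (0.777 ± 0.464) and *CBF3* (0.673 ± 0.041) were near the limit of detection, at 3 to 42 counts per wild-type library. Libraries of neighbors in this order overlapped for *RD29A* and *RD29B*, for *COR15A* and *KIN1*, and for each step from *KIN1* to *CBF3*. With the unique read positions of each gene taken as its length, the order of the 10 genes was the same. In *fpa*, *COR47* (137 ± 10.3 RPKM) stood above *KIN2* (76.0 ± 13.0), and no library of *KIN2* reached a library of *COR47*. Per length, *KIN2* was thus the strongest of these genes in unstressed wild-type and *bdr1,2,3* seedlings, and its array partner *KIN1* was close to the bottom. In mean CPM, *COR47* was above *KIN2* in wild type (261 against 147) and in *bdr1,2,3* (289 against 138). The order per length rests on RefSeq exon lengths, whereas the counts were made on TAIR10.

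**Figure D2:**
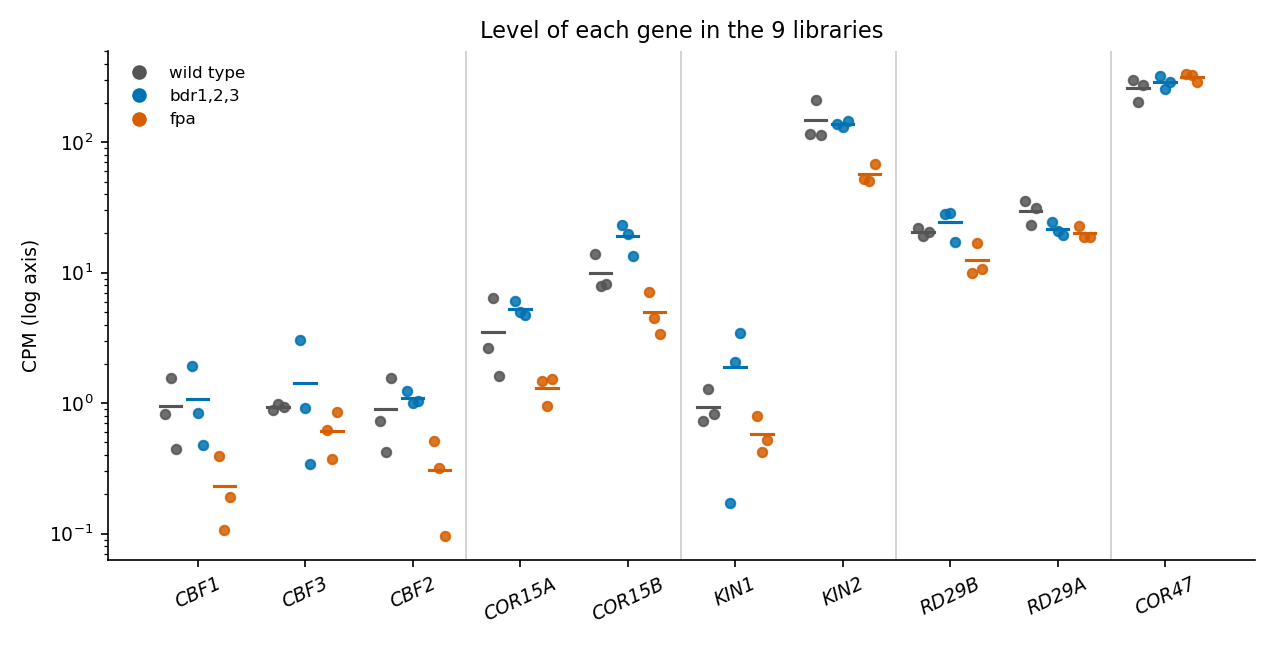
CPM of the 10 genes on a log axis, with 1 point per library, a bar for the mean of the 3 libraries of a genotype, and vertical lines between arrays. *KIN2* sits at 50.2 to 68.2 CPM in *fpa* and at 115 to 212 CPM in wild type, while *COR47* lies between 203 and 334 CPM in all 9 libraries.

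None of the 10 genes had a called difference from wild type in *bdr1,2,3*. In the quasi-likelihood fit of edgeR, with p adjusted by Benjamini-Hochberg, 0 of 10 genes were called in *bdr1,2,3* at an adjusted p under 0.05, where 2.48% of all tested genes were called, 1.88% as lower and 0.603% as higher. At an unadjusted p under 0.05 there were 2 genes, *COR15B* and *RD29A*, with opposite signs, and DESeq2 called 0. Over all 20413 tested genes, 3083 had an unadjusted p under 0.05 in this comparison. The estimates were above 0 for 8 genes and below 0 for 2, with a median log2 fold change of 0.31 beside 0.01 over all tested genes. In none of the 10 genes did the 3 *bdr1,2,3* libraries stand clear of the 3 wild-type libraries, against 19.1% of tested genes (9.62% lower and 9.45% higher).

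In *fpa* the picture was lower levels, with 1 call. *KIN2* fell, and 9 of 10 estimates were below 0, with a median of -0.87 beside 0.00 over all tested genes. That is 1 of 10 called where 3.1% of tested genes were called, 1.82% as lower. All *fpa* libraries were below all wild-type libraries for 7 of the 10 genes, against 13.4% of tested genes (26.6% in either direction). An unadjusted p under 0.05 was found for 7 genes, and for 4044 of all 20413 tested genes. DESeq2 called 5 genes, adding *COR15A*, *COR15B*, *RD29A* and *RD29B*. It also called more genes over all 20413 tested, 885 as lower and 644 as higher, where edgeR called 371 and 262.

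The 2 mutants were then compared directly, which uses no wild-type level. *COR15A*, *COR15B*, *KIN2* and *RD29B* were higher in *bdr1,2,3* than in *fpa*, by 4.00-, 3.82-, 2.42- and 1.98-fold. These 4 of 10 calls compare with 3.54% of tested genes in either direction, 1.38% as higher and 2.16% as lower. The *bdr1,2,3* libraries lay above all *fpa* libraries for 6 genes, the 4 called ones and *CBF1* and *CBF2*, against 12.1% of tested genes (24.1% in either direction). Since RNA came from whole seedlings, fewer cells of a type and less RNA per cell cannot be told apart in any of these differences.

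**Figure D3:**
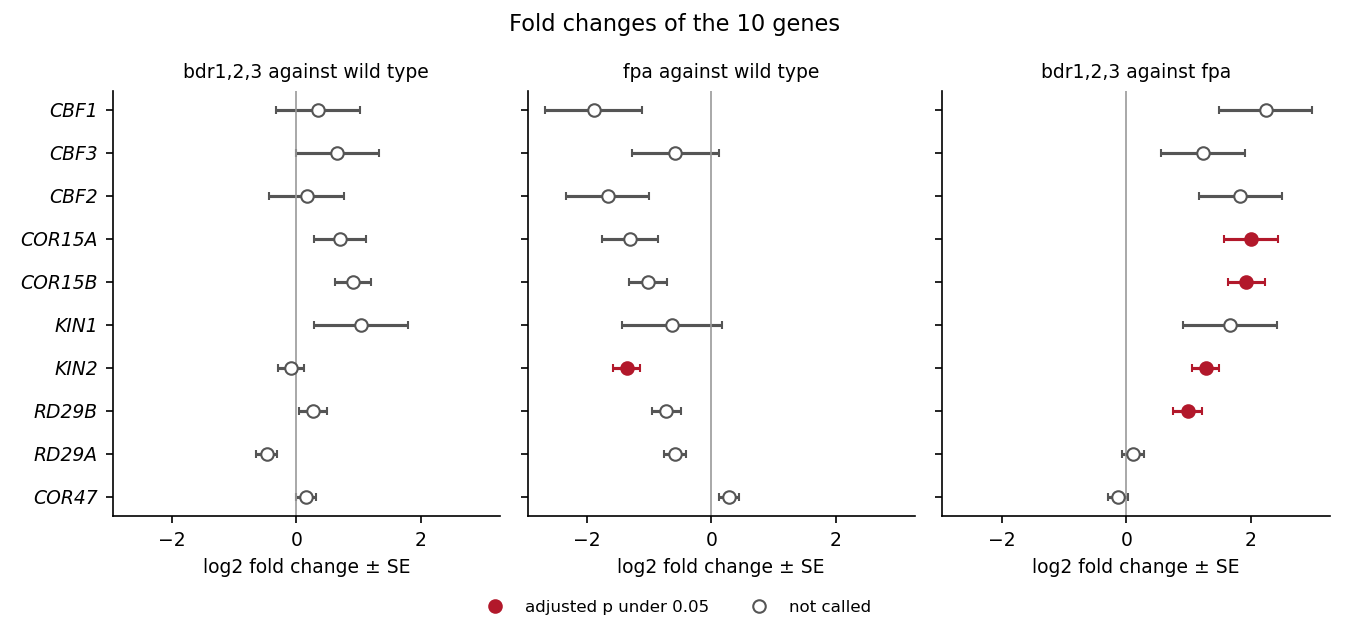
Log2 fold changes of the 10 genes with their standard errors (horizontal axis) in the 3 comparisons, from 1 edgeR fit of all 9 libraries, where filled red points have an adjusted p under 0.05. No gene is called in *bdr1,2,3* against wild type, *KIN2* (-1.36) in *fpa* against wild type, and *COR15A*, *COR15B*, *KIN2* and *RD29B* (0.99 to 2.0) in *bdr1,2,3* against *fpa*.

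The transcription factor genes came first in the pathway and last in abundance. *CBF1* was at 16, 11 and 12 counts in wild-type libraries 1, 12 and 5, at 45, 21 and 7 counts in *bdr1,2,3* libraries 2, 4 and 7, and at 7, 2 and 4 counts in *fpa* libraries 3, 6 and 8. *CBF2* was at 14, 3 and 42 counts in wild type, 29, 25 and 15 in *bdr1,2,3* and 9, 6 and 2 in *fpa*. *CBF3* was at 17, 7 and 25 counts in wild type, 71, 23 and 5 in *bdr1,2,3* and 11, 7 and 18 in *fpa*. *bdr1,2,3* library 2 held the highest count of *CBF1* and *CBF3* in the series. After scaling for depth, the wild-type libraries spread from 0.448 to 1.56 CPM for *CBF1* and from 0.425 to 1.57 CPM for *CBF2*, but only from 0.880 to 0.993 CPM for *CBF3*. In *bdr1,2,3* the order was different, with *CBF2* at 0.995 to 1.24 CPM and *CBF3* at 0.344 to 3.05 CPM. On the same scale, every *fpa* library was below every wild-type library for *CBF1* and *CBF3*, though not for *CBF2*. The log2 fold change in *fpa* was -1.89 (SE 0.78, adjusted p = 0.198) for *CBF1*, -1.67 (SE 0.67, adjusted p = 0.188) for *CBF2* and -0.58 (SE 0.71, adjusted p = 0.695) for *CBF3*, and none was called by edgeR. In *bdr1,2,3* against wild type the 95% interval of the log2 fold change ran from -1.10 to 1.80 for *CBF1*, from -1.13 to 1.45 for *CBF2* and from -0.78 to 2.08 for *CBF3*, so differences of 2-fold in either direction lay within the interval for *CBF1* and *CBF2*. Without *bdr1,2,3* library 2 the estimates for *CBF1* and *CBF3* in that comparison turned to -0.36 and -0.50.

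*COR15A* and *COR15B* encode chloroplast stroma proteins that protect membranes during freezing, and they are standard readouts of CBF activity. *COR15A* was at 2.64, 6.38 and 1.61 CPM in wild-type libraries 1, 12 and 5, at 6.09, 5.01 and 4.75 CPM in *bdr1,2,3* libraries 2, 4 and 7, and at 1.47, 0.956 and 1.52 CPM in *fpa* libraries 3, 6 and 8. *COR15B* was at 13.8, 7.94 and 8.18 CPM in wild type, 23.4, 19.98 and 13.5 in *bdr1,2,3* and 7.14, 4.51 and 3.38 in *fpa*. For both genes the *fpa* libraries lay below all others, whereas *bdr1,2,3* and wild type overlapped, for *COR15A* only through wild-type library 12 and for *COR15B* by a single *bdr1,2,3* library, number 7. Between the mutants the log2 difference was 2.0 (SE 0.44, adjusted p = 0.0191, edgeR) for *COR15A* and 1.93 (SE 0.30, adjusted p = 0.00202) for *COR15B*. The *COR15A* call was lost in 5 of the 6 fits that left out a mutant library, with adjusted p from 0.062 to 0.099, while *COR15B* was called in every alternative fit. Against wild type, *COR15B* had a log2 fold change of 0.92 in *bdr1,2,3* (SE 0.29, adjusted p = 0.138) and of -1.02 in *fpa* (SE 0.30, adjusted p = 0.0849). Without wild-type library 1 the first of these became a call (1.24, adjusted p = 0.0482). The overlapping gene AT2G42520 had a log2 fold change of -0.40 in *bdr1,2,3* (SE 0.12, adjusted p = 0.1001), in the other direction from *COR15B*, and of -0.17 in *fpa* (SE 0.12, adjusted p = 0.461), in the same direction as *COR15B*.

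*KIN1* and *KIN2* encode small cold- and abscisic acid-induced proteins that resemble LEA proteins. *KIN2* was at 115, 212 and 115 CPM in wild-type libraries 1, 12 and 5, at 139, 130 and 146 CPM in *bdr1,2,3* libraries 2, 4 and 7, and at 52.5, 50.2 and 68.2 CPM in *fpa* libraries 3, 6 and 8. The *fpa* libraries were below all 6 others, and wild-type library 12 was the highest of all. *KIN2* fell by 1.36 on the log2 scale in *fpa* against wild type, to 0.389 of its level (SE 0.22, adjusted p = 0.00429, edgeR), and was 1.28 higher in *bdr1,2,3* than in *fpa* (SE 0.21, adjusted p = 0.00363). Both calls held in all 15 alternatives, with log2 fold changes from -1.51 to -1.01 for the first and from 1.19 to 1.43 for the second. In *bdr1,2,3* against wild type the log2 fold change was -0.08, with a 95% interval from -0.54 to 0.37, and turned to 0.27 (adjusted p = 0.368) without wild-type library 12. *KIN1* was at 14, 9 and 22 counts in wild type, 4, 52 and 50 in *bdr1,2,3* and 14, 8 and 11 in *fpa*. The 3 *bdr1,2,3* libraries of *KIN1* thus held both the lowest and the highest counts in the series, and its log2 fold change there was 1.04 (SE 0.75, adjusted p = 0.553). Without *bdr1,2,3* library 2 the difference between the mutants became a call (2.23, adjusted p = 0.0468, against 1.67 and 0.319 with all libraries).

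*RD29A* and *RD29B* encode hydrophilic proteins best known for their promoters, of which that of *RD29A* serves as a reporter of cold and drought and that of *RD29B* as a reporter of abscisic acid. *RD29A* was at 35.4, 23.1 and 31.2 CPM in wild-type libraries 1, 12 and 5, at 24.3, 20.8 and 19.6 CPM in *bdr1,2,3* libraries 2, 4 and 7, and at 22.7, 18.8 and 18.7 CPM in *fpa* libraries 3, 6 and 8. *RD29B* was at 22.2, 19.3 and 20.4 CPM in wild type, 28.0, 28.8 and 17.3 in *bdr1,2,3* and 10.02, 16.9 and 10.6 in *fpa*. The *fpa* libraries of each gene were below all wild-type libraries, but the *bdr1,2,3* libraries differed between the genes, near *fpa* for *RD29A* and mostly above wild type for *RD29B*. *RD29B* was accordingly called between the mutants (0.99, SE 0.23, adjusted p = 0.0258, edgeR) and *RD29A* was not (0.11, SE 0.17, 95% interval -0.26 to 0.48). The *RD29B* call was lost without *bdr1,2,3* library 2 or 4 or *fpa* library 3 or 8, with adjusted p from 0.111 to 0.144. Against wild type, *RD29A* had log2 fold changes of -0.48 in *bdr1,2,3* (SE 0.17, adjusted p = 0.196) and -0.59 in *fpa* (SE 0.17, adjusted p = 0.0799), both of which became calls without wild-type library 12 (-0.62, adjusted p = 0.0321, and -0.73, adjusted p = 0.0135). *RD29B* had 0.26 (SE 0.22, adjusted p = 0.632) and -0.72 (SE 0.23, adjusted p = 0.0978).

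*COR47* encodes an acidic dehydrin, as does its upstream tandem neighbor *ERD10*. *COR47* was at 302, 203 and 277 CPM in wild-type libraries 1, 12 and 5, at 323, 254 and 289 CPM in *bdr1,2,3* libraries 2, 4 and 7, and at 334, 328 and 290 CPM in *fpa* libraries 3, 6 and 8. Its genotypes overlapped, and it was the only one of the 10 genes with a positive estimate in *fpa* (0.28, SE 0.16, adjusted p = 0.355, edgeR). Its 95% intervals, -0.20 to 0.49 in *bdr1,2,3* and -0.06 to 0.63 in *fpa*, were the narrowest in both comparisons. *ERD10* was at 41.6, 38.9 and 44.3 CPM in wild type, 54.0, 43.3 and 59.2 in *bdr1,2,3* and 56.0, 61.2 and 57.7 in *fpa*, where all libraries were above wild type (0.48, SE 0.14, adjusted p = 0.0749). *COR47* and *ERD10* therefore had estimates of the same sign in *fpa*, opposite to those of the genes of the 4 arrays, though neither was called. Other dehydrin genes named below went both ways in *fpa*. *RAB18* and *XERO1* were lower (-0.94, adjusted p = 0.0234, and -0.98, adjusted p = 0.124, edgeR) and *LTI30* was higher (0.94, adjusted p = 0.0256).

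Within an array, the ratio of the downstream to the upstream gene compares both genes in the same library, with 0.5 added to each count. Of the 10 ratio tests (5 adjacent pairs in 2 mutants), none passed, and an exact permutation test of 3 against 3 libraries cannot give a two-sided p under 0.1. *RD29A* over *RD29B* was the only pair whose *bdr1,2,3* and wild-type libraries did not overlap. Its count ratio was 1.60, 1.199 and 1.53 in wild-type libraries 1, 12 and 5 and 0.870, 0.723 and 1.135 in *bdr1,2,3* libraries 2, 4 and 7, a mean log2 difference of -0.68 (exact permutation p = 0.1, adjusted over 10 tests 0.5), with a range of -0.85 to -0.53 when a library was left out. In *fpa* the same ratio was 2.27, 1.11 and 1.76 and overlapped wild type (0.20, exact permutation p = 0.5). *KIN2* over *KIN1* was 158, 166 and 139 in wild type and lower in all 3 *fpa* libraries, at 66.2, 118 and 130 (-0.63, exact permutation p = 0.1, adjusted 0.5). In *bdr1,2,3* that ratio ran from 42.3 to 809, which follows the 4 counts of *KIN1* in library 2.

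The other array pairs gave no separation. *COR15B* over *COR15A*, the pair only 7 bp apart, was 5.24, 1.24 and 5.09 in wild-type libraries 1, 12 and 5, and 3.84, 3.98 and 2.86 in *bdr1,2,3*. Wild-type library 12 thus differed more from its own group than any mutant library did. The mean log2 difference of *bdr1,2,3* from wild type was 0.14 with that library and -0.54 without it, when both *fpa* (-0.49) and *bdr1,2,3* had lower ratios. For *CBF3* over *CBF1* and *CBF2* over *CBF3* the log2 differences in *bdr1,2,3* were -0.05 and 0.32 and in *fpa* 1.25 and -0.91, each with overlapping libraries and an exact permutation p of 0.2 or more.

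**Figure D4:**
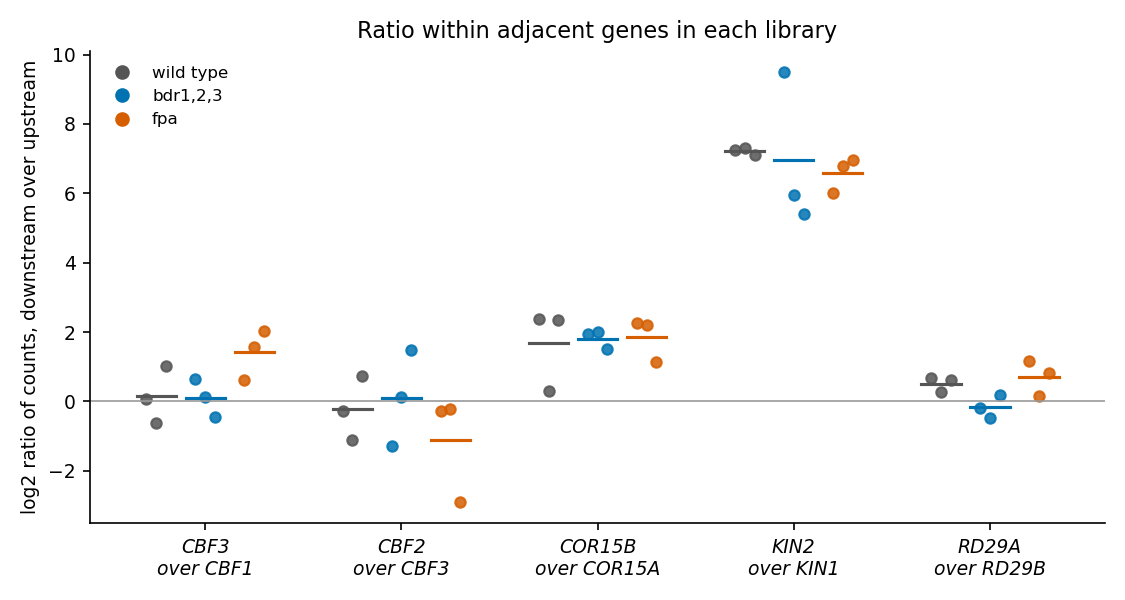
Log2 ratio of counts of the downstream over the upstream gene (vertical axis) for the 5 adjacent pairs, with 1 point per library and a bar for the genotype mean. The *RD29A* over *RD29B* points of *bdr1,2,3* lie below those of wild type, and the *COR15B* over *COR15A* point of wild-type library 12 lies apart from the other 2 wild-type points.

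The neighbors at the outer ends of the arrays were also examined. *RS40*, a splicing factor gene on the opposite strand upstream of *CBF1*, had log2 fold changes of -0.16 in *bdr1,2,3* and -0.41 in *fpa* (adjusted p = 0.588 and 0.0911, edgeR). *SHOC1*, on the opposite strand upstream of *RD29B*, was too low to test, with means of 0.289 to 0.371 CPM. AT5G15950, upstream of *KIN1* on the same strand, and AT2G42550, upstream of *COR15A* on the opposite strand, had 0 counts in all 9 libraries. AT5G15948, the next identifier before AT5G15950, was also at 0, and whether the counting dropped reads at this locus was not tested, so the 0 does not show that the upstream tandem neighbor of *KIN1* is silent. Downstream of *CBF2*, 1164 bp away on the same strand, the ABC transporter gene *ABCB28* fell in *bdr1,2,3*, from 74.3, 69.8 and 69.5 CPM in wild-type libraries 1, 12 and 5 to 41.6, 48.4 and 35.7 CPM (log2 fold change -0.76, SE 0.14, adjusted p = 0.00700), and it is named here after its values were seen. It was the only immediate protein-coding neighbor of the 10 genes, upstream or downstream, to be called in *bdr1,2,3*, where 2.48% of all tested genes were called. AT5G15950, AT2G42550 and *SHOC1* were not tested. In *fpa* libraries 3, 6 and 8, *ABCB28* was at 57.1, 49.8 and 51.7 CPM, also below all wild-type libraries. It was not called there (log2 fold change -0.43, SE 0.14, adjusted p = 0.0981, edgeR).

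The wider cold and drought pathway was read from 3 lists with 50 genes in all, of which 45 were tested. In *bdr1,2,3*, 1 of the 45 rose and 1 fell, and in *fpa* 1 rose and 2 fell, so that 2 and 3 of 45 compare with the 2.48% and 3.1% of all tested genes. Their median log2 fold changes were 0.08 in *bdr1,2,3* and 0.00 in *fpa*. *LTI30*, a dehydrin gene, was at 12.3, 6.24 and 11.7 CPM in wild-type libraries 1, 12 and 5, at 21.9, 22.5 and 22.3 CPM in *bdr1,2,3* and at 21.4, 20.5 and 17.7 CPM in *fpa*. It rose in both mutants, by 2.14-fold (adjusted p = 0.00896) and 1.91-fold (adjusted p = 0.0256). *COR413IM1*, which encodes a protein of the inner chloroplast envelope, fell in both, with log2 fold changes of -0.75 (SE 0.17, adjusted p = 0.0268) and -1.03 (SE 0.17, adjusted p = 0.00535). *RAB18*, an abscisic acid-induced dehydrin gene, was at 150, 236 and 128 CPM in wild type, 175, 195 and 155 in *bdr1,2,3* and 74.1, 101 and 91.0 in *fpa*, and fell in *fpa* (-0.94, SE 0.20, adjusted p = 0.0234), with a direct difference between the mutants of 0.98 (SE 0.20, adjusted p = 0.0138). Like *KIN2*, it was lower in every *fpa* library than in any other.

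Among the regulators of the *CBF* genes, 0 of 10 tested genes were called by edgeR or by DESeq2 in any comparison, with 0, 1 and 2 genes at an unadjusted p under 0.05 in *bdr1,2,3*, in *fpa* and between the mutants. In the comparisons with wild type, the smallest p-values belonged to *MYB15*, a repressor of *CBF* genes (log2 fold change -2.71 in *fpa*, SE 1.25, adjusted p = 0.246, at 0 to 30 counts per library), *ZAT10*, a zinc finger factor gene (0.69 in *bdr1,2,3*, SE 0.32, adjusted p = 0.331), and *ICE1*, an activator (-0.25 in *fpa*, SE 0.12, adjusted p = 0.258). Between the mutants they belonged to *ZAT10* (0.73, SE 0.32, adjusted p = 0.294) and to *ZAT12*, another zinc finger factor gene, named after its values were seen (0.45, SE 0.20, adjusted p = 0.294). A further pair of members of the CBF/DREB1 family did not pass the filter and are named after their values were seen. *DDF1* had 17, 15 and 3 counts in *bdr1,2,3* libraries 2, 4 and 7 and 0 in the other 6 libraries, and *CBF4* had 11, 3 and 1 and 0 in the others. The level pooled over the *bdr1,2,3* libraries was 9.84 times a floor of 3 counts over the wild-type group for *DDF1* and 4.22 times for *CBF4*. These ratios depend on the chosen floor and take no account of the spread between libraries. Without the filter on low counts the adjusted p against wild type was 0.114 for *DDF1* and 0.313 for *CBF4* (edgeR), so neither was called.

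Other lists were examined because the same genes respond to the time of day, to handling and to seed maturation. Of 8 tested clock genes, *LUX* fell in *fpa* (-0.67, SE 0.13, adjusted p = 0.0133, edgeR) and none was called in *bdr1,2,3*, where 1 had an unadjusted p under 0.05 and DESeq2 called 0. The clock genes summed to 611 to 765 CPM in wild type, 701 to 915 in *bdr1,2,3* and 630 to 775 in *fpa*. Touch and handling genes (8 tested) had no call against wild type, with 1 and 2 at an unadjusted p under 0.05 in *bdr1,2,3* and *fpa*, and DESeq2 called 0 and 1. They summed to 216 to 247 CPM in wild type, 220 to 326 in *bdr1,2,3* and 196 to 325 in *fpa*. Seed maturation genes, some of which share abscisic acid control with *RD29B* and *RAB18*, summed to 8.85 to 20.7 CPM in wild type, 15.2 to 18.6 in *bdr1,2,3* and 5.32 to 13.3 in *fpa*. None of the 5 tested was called against wild type, 0 had an unadjusted p under 0.05 and DESeq2 called 0, and *LEC1* was at 0 in every library. Between the mutants, where most of the calls among the 10 genes were made, 0 of the 5 seed genes were called by edgeR, 1 had an unadjusted p under 0.05 and DESeq2 called 1. Over all 20413 tested genes, 3036 had an unadjusted p under 0.05 in this comparison. The median log2 difference of the 5 seed genes between the mutants was 1.15, beside 0.01 over all tested genes, and was above 0 for 4 of 5. All *bdr1,2,3* libraries lay above all *fpa* libraries for 2 of the 5, against 12.1% of tested genes (24.1% in either direction). *EM6*, a late embryogenesis abundant gene named after its values were seen, had a log2 difference of 1.21 (SE 0.37, adjusted p = 0.104), in the same direction as the called genes. The part of these lists in the differences of the 10 genes was not tested.

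Seedling tissues were checked with leaf and root markers. Of 6 leaf markers, *CA1*, a carbonic anhydrase gene, fell in *bdr1,2,3* (-0.88, SE 0.18, adjusted p = 0.0149, edgeR), and 0 were called in *fpa*, where 3 had an unadjusted p under 0.05 and DESeq2 called 0. Leaf markers summed to 26047 to 42833 CPM in wild type, 23162 to 26584 in *bdr1,2,3* and 21005 to 25533 in *fpa*. Estimates were below 0 for 6 of 6 leaf markers in *bdr1,2,3* (median -0.23) and for 5 of 6 in *fpa* (median -0.38). All mutant libraries lay below all wild-type libraries for 2 in *bdr1,2,3*, against 9.62% of tested genes, and for 4 in *fpa*, against 13.4%. Of 9 root markers, 0 were called in either mutant, with 3 and 2 at an unadjusted p under 0.05 and 0 and 1 by DESeq2, and their sums were 80.9 to 108, 76.7 to 94.3 and 86.6 to 95.03 CPM. Both kinds of marker were detected in all genotypes, as the label of whole seedlings implies.

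The genes whose profile over the 9 libraries was most like that of the 10 genes were named by Pearson's r with a mean standardized profile. For the 3 *CBF* genes they were *ASG1*, AT1G78890, *MYBC1*, *CAT3* and *CLE20* (r from 0.939 to 0.964), and for the other 7 genes *THIC*, AT5G14460, AT5G43180, AT3G05170 and AT5G39590 (r from 0.966 to 0.977). Libraries of a genotype are not independent points here, depth differed between libraries, and these values only describe the 9 libraries.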

How the data were processed

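RNA was extracted from whole seedlings and sequenced as single-end reads of 49 bases. Per the submitters' processing notes, the authors used TopHat2 2.0.8, SAMtools 1.2, featureCounts, R 3.3.2 and DESeq2 1.14.1 with TAIR10, kept uniquely aligned reads, and deposited raw counts per gene. The strand setting and annotation options of the counting are not given in the sources used here. A second deposited table of normalized values, which covers 8 of the 9 libraries, was not used.

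Groups were taken from the labels, and the study describes biological triplicates. Counts were tested with edgeR 4.0.16 (filterByExpr, TMM factors, quasi-likelihood test, all 9 libraries in 1 fit, 20413 genes, Benjamini-Hochberg adjustment, two-sided, adjusted p under 0.05). On simulated counts for *bdr1,2,3* against wild type with 200 changed genes among 20413, 75% of 2-fold and 98% of 4-fold changes were recovered. The changed genes were drawn only from genes with a mean above 2 CPM. This recovery therefore does not apply to *CBF1*, *CBF2*, *CBF3* and *KIN1*, which were below that level. CPM used TMM-scaled totals, and RPKM used RefSeq exon lengths. Ratios within arrays were tested by exact permutation. Unique positions were found with bwa 0.7.19 on TAIR10.1. Alternatives were DESeq2 1.42.0, other scalings and filters, the compared genotypes alone, an adjusted p under 0.01 and leaving out each library.

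The 10 genes and the gene lists were chosen with earlier results of these data known. The text names the 10 genes, their upstream neighbors, *ERD10*, the disrupted genes, list genes called against wild type (or the 3 with the smallest p in a pathway list without a call) and the 5 genes most alike to each profile. *COR28* was dropped because its annotation did not hold that name.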

Additional observations from a re-analysis of the deposited data

Results flagged for a closer look

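Several genes differed between *bdr1,2,3* and *fpa* in the direct edgeR test of the 2 mutants, given here as log2 differences with adjusted p. Among the 10 genes these were *COR15A* (2.0, adjusted p = 0.0191), *COR15B* (1.93, adjusted p = 0.00202), *KIN2* (1.28, adjusted p = 0.00363) and *RD29B* (0.99, adjusted p = 0.0258), all higher in *bdr1,2,3*.

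Of 45 tested pathway genes, 5 differed in the same test, 4 higher and 1 lower in *bdr1,2,3*, where 3.54% of all tested genes were called, 1.38% as higher and 2.16% as lower. Some of them are named only because of it. *RAB18* (0.98, adjusted p = 0.0138), *LEA4-5*, a late embryogenesis abundant gene (1.26, adjusted p = 0.0145), *XERO1*, a dehydrin gene (1.29, adjusted p = 0.0453), and *COR27*, a cold- and clock-regulated gene (0.55, adjusted p = 0.0406), were higher in *bdr1,2,3*. *ADH1*, an alcohol dehydrogenase gene, was lower in *bdr1,2,3* (-2.14, adjusted p = 0.00363), at 2.57, 1.79 and 2.89 CPM in libraries 2, 4 and 7 against 11.1, 14.0 and 6.66 CPM in *fpa* libraries 3, 6 and 8. Of the clock genes, *LUX* was higher in *bdr1,2,3* (0.68, adjusted p = 0.00848).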

How the results depend on the processing

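No paired analysis was possible because the genotypes share no replicate number. Among the 10 genes, calls in *bdr1,2,3* against wild type numbered 0, and 0 to 1 with a library left out. In *fpa* against wild type there was 1 call, 1 to 2 with a library left out, 5 by DESeq2 and 2 without the filter on low counts (adding *COR15B*). Between the mutants there were 4, 2 to 4 with a library left out, and 2 at an adjusted p under 0.01. Of the pathway genes, 2 were called in *bdr1,2,3* (4 by DESeq2, 1 at the stricter limit, 1 to 3 with a library left out), 3 in *fpa* (7 by DESeq2, 1 with only the compared genotypes, 1 at the stricter limit, 1 to 4 with a library left out) and 5 between the mutants (8 by DESeq2, 9 with only the compared genotypes, 1 at the stricter limit, 1 to 10 with a library left out). The cause of these changes was not tested. Over all 20413 tested genes, DESeq2 called 671 as lower and 259 as higher in *bdr1,2,3*, and 885 and 644 in *fpa*. Between the mutants it called 671 as lower and 495 as higher.

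With a library left out, the sign in *bdr1,2,3* against wild type turned for *CBF1* (-0.36 to 0.80), *CBF2* (-0.086 to 0.84), *CBF3* (-0.50 to 1.08), *KIN2* (-0.24 to 0.27) and *COR47* (-0.0068 to 0.26). The log2 ratio differences of *bdr1,2,3* from wild type ranged, with a library left out, from -0.45 to 0.38 for *CBF3* over *CBF1*, -0.37 to 1.02 for *CBF2* over *CBF3*, -0.54 to 0.49 for *COR15B* over *COR15A* and -1.54 to 0.51 for *KIN2* over *KIN1*. In *fpa* they ranged from -0.49 to 0.56 for *COR15B* over *COR15A* and -0.032 to 0.48 for *RD29A* over *RD29B*. With 5 counts added in place of 0.5, none of the 10 ratio differences changed sign. *CBF1*, *CBF2*, *CBF3* and *KIN1* have no value with at least 10 counts required in every library. *CBF1* and *CBF2* in *fpa* against wild type, and *CBF1* between the mutants, have none with only the compared genotypes.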
